A study of Mus musculus with 6 samples.

Results

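The genes described here encode calcium-binding proteins of the lumen of the endoplasmic reticulum (ER) and the Golgi. They were chosen by name as the rows Calr, Canx, Calu, Rcn1, Rcn2, Rcn3, Sdf4, Nucb1 and Nucb2 of the deposited count table, which gives 9 genes of 54532 rows, each name on a single row. The RNA was from NIT-1 cells, as labelled, a line grown from a mouse insulinoma and kept as a beta-cell model. The 3 EV_Tm samples are cells exposed for 16 h to vesicles released by mesenchymal stem cells of human umbilical cord (hucMSC-EVs), and the 3 PBS_Tm samples are cells kept for 16 h with PBS instead. Both groups were then given Tm for 8 h, read here as tunicamycin, a blocker of N-linked glycosylation that causes ER stress, so no library without Tm enters a comparison. The treatment label of PBS_Tm says that nothing was given, but the titles and the design text of the series place these samples in the Tm arm, and these were followed.

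The ER is the main calcium store of the cell, and much of its calcium is held by luminal proteins that bind it loosely and in bulk. Calreticulin and calnexin do this and also hold newly made glycoproteins through their trimmed sugars until these are folded. Calumenin, the reticulocalbins and Sdf4 (Cab45) belong to the CREC family, built of repeated EF-hands, the loops that bind calcium. The nucleobindins are EF-hand proteins found mainly in the Golgi, and nucleobindin 2 is also the precursor of the secreted peptide nesfatin-1.

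The libraries held 28654248 to 32550268 counts. The labelled cell type was checked against its markers: of 14 beta-cell markers 10 had at most 3 counts in every library, Ins2, Iapp, Pdx1, Nkx6-1, Slc30a8, Ucn3, G6pc2, Neurod1 and Pcsk1 among them at 0 throughout. The beta-cell markers summed to 0.279 to 1.03 CPM (counts per 1000000 counts of the TMM-scaled library) in EV_Tm and 0.133 to 0.440 CPM in PBS_Tm. None of the 14 had enough counts to be tested, so these markers did not bear out the label of a beta-cell line. The reason was not tested. The 8 fibroblast or mesenchymal markers summed to 17.4 to 20.3 CPM in EV_Tm and 22.7 to 23.9 CPM in PBS_Tm, and the 3 endothelial markers to 29.0 to 30.6 CPM in EV_Tm and 31.6 to 33.6 CPM in PBS_Tm. Of the mesenchymal markers, Col1a2, Thy1, Lum and Dcn had too few counts to be tested. Pdgfra was the highest, at 7.67 ± 1.20 CPM in EV_Tm and 9.06 ± 1.08 CPM in PBS_Tm (SD, n = 3 each, edgeR adjusted p = 0.151). The 4 macrophage markers summed to 4.43 to 6.41 CPM in EV_Tm and 2.78 to 4.46 CPM in PBS_Tm. Nearly all of this was Cd68, while Adgre1 had at most 1 count, Csf1r 4 and Lyz2 6 in a library. Most of the endothelial sum was Pecam1, at 24.5 ± 1.05 CPM in EV_Tm and 28.5 ± 0.77 CPM in PBS_Tm (SD, n = 3 each). Kdr had 0 counts throughout. Cdh5 was 1.30-fold higher in EV_Tm but did not pass (edgeR adjusted p = 0.111). Single markers were called in both directions: Pdgfrb was 2.91-fold lower (edgeR adjusted p = 9.1e-08), Col1a1 1.70-fold lower (0.0071) and Pecam1 1.16-fold lower (0.0202) in EV_Tm, while Col3a1 was 1.74-fold higher (0.000286) and Cd68 1.39-fold higher (0.0482). Markers of acinar, other endocrine and epithelial cells summed to less than 1 CPM in every library. The part of any of these in the results below was not tested, and in bulk RNA fewer cells of a type and less RNA per cell cannot be told apart. Nothing in the labels tells whether replicates are separate cultures, and p-values therefore cover the spread among these 6 samples, possibly a technical one.

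Most of these calcium-binding genes were lower in EV_Tm than in PBS_Tm. Of the 8 members with enough counts to be tested, 6 fell (Nucb2, Calr, Canx, Nucb1, Calu and Rcn3), Sdf4 rose and Rcn2 did not pass (edgeR quasi-likelihood test, Benjamini-Hochberg adjusted p under 0.05 over 16844 genes). Rcn1 had no read in any library. Over all tested genes 47.4% were called, 24.7% as lower and 22.6% as higher in EV_Tm, so a call by itself sets a gene apart little, and the sizes matter more. The 8 members had a median log2 fold change of -0.61, against 0.01 over all tested genes. Calr and Nucb2 were among the 95 genes, or 0.564% of those tested, that were at least 4-fold lower in EV_Tm, and Canx was among the 453 genes (2.69%) that were at least 2-fold lower. The members together took 0.255% ± 0.0035 of all counts in EV_Tm and 0.633% ± 0.0074 in PBS_Tm (SD, n = 3 each).

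**Figure D1:**
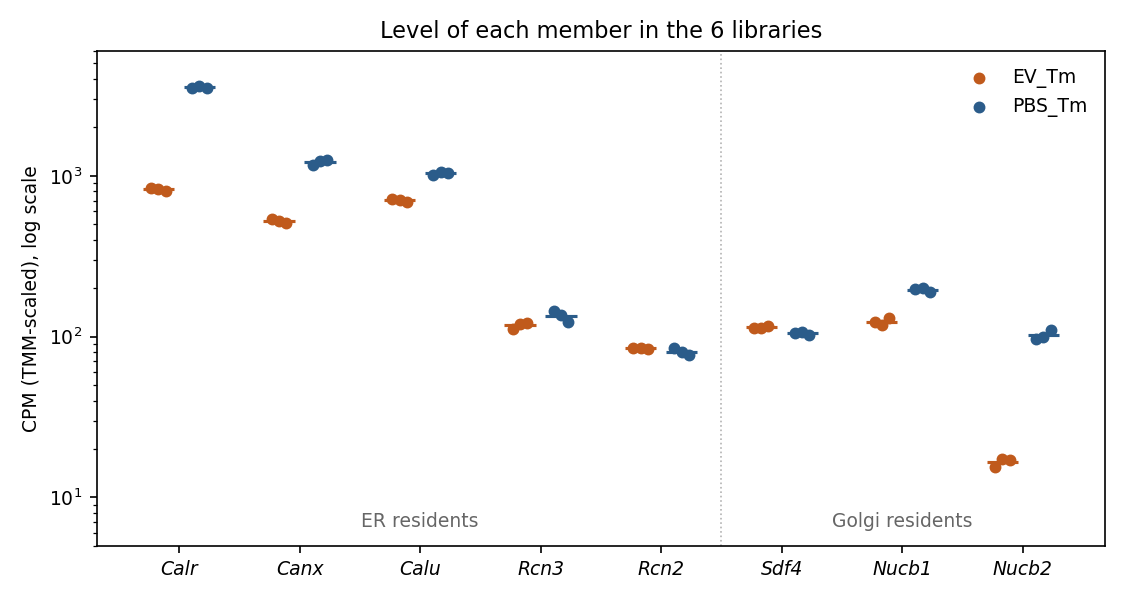
Level of the 8 tested members in each library, in CPM scaled by TMM on a log axis, with EV_Tm left of PBS_Tm for each gene. Points are libraries and lines are means (n = 3 each). Calr stands at 807 to 842 CPM in EV_Tm and 3517 to 3605 CPM in PBS_Tm. The groups overlap for Rcn2 alone, and of all 16844 tested genes 54.5% show no overlap.

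Calr (ENSMUSG00000003814, chromosome 8, 84841850 to 84846934, minus strand, coordinates on GRCm38 here and below) encodes calreticulin, the soluble lectin chaperone and a main calcium buffer of the ER. It was at 842, 833 and 807 CPM in EV_Tm, against 3542, 3605 and 3517 CPM in PBS_Tm. The groups lay far apart, and the spread within each was small beside the gap between them. Calr was 4.30-fold lower in EV_Tm (log2 fold change -2.10 ± 0.03, SE, edgeR adjusted p = 4.12e-25). Only 0.433% of tested genes had a lower fold change. It took 0.0838% ± 0.0017 of all counts in EV_Tm and 0.350% ± 0.0035 in PBS_Tm (SD, n = 3 each).

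Canx (ENSMUSG00000020368, chromosome 11, 50293961 to 50325673, minus strand) encodes calnexin, the membrane-anchored partner of calreticulin. It was at 543, 526 and 510 CPM in EV_Tm, against 1164, 1237 and 1253 CPM in PBS_Tm. Again no EV_Tm library reached the level of a PBS_Tm library. Canx was 2.32-fold lower in EV_Tm (log2 fold change -1.21 ± 0.04, SE, edgeR adjusted p = 1.51e-18).

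The balance of the lectin chaperones can be read within each library, without any scaling between libraries. Calr had 1.55, 1.58 and 1.58 times the counts of Canx in EV_Tm, against 3.04, 2.92 and 2.81 times in PBS_Tm. The log2 ratio differed by -0.89 ± 0.04 (SE), and no value of one group lay within the range of the other. The exact two-sided permutation test gave p = 0.10, the smallest that 3 against 3 libraries allow, and 0.10 after adjustment over the 5 gene pairs compared.

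The promoter windows of the lectin chaperones are shown because both hold a complete ER stress response element (ERSE), a motif known to bind ATF6 together with the CCAAT factor NF-Y. The windows run from 250 bases before to 50 bases after the annotated start and come from RefSeq on GRCm38.p6, read on the strand of the gene. The letters searched, which end in the CCACG box shared with the ERSE-II, were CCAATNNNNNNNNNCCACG on both strands, and capitals mark the fixed letters of the match. The Calr window is chr8:84846882-84847181 (minus strand) and the Canx window chr11:50325624-50325923 (minus strand).
Calr: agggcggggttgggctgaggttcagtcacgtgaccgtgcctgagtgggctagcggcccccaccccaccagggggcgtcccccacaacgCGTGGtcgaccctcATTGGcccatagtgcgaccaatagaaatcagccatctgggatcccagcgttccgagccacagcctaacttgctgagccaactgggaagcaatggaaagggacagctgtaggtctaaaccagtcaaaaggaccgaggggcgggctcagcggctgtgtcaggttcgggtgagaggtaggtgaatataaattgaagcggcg
Canx: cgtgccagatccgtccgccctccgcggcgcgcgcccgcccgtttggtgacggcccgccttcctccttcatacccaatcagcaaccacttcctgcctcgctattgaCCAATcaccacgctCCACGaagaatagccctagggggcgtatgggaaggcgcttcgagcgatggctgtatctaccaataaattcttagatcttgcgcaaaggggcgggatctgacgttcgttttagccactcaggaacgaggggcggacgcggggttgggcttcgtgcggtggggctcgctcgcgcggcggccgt

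In Calr the match stood on the opposite strand, 162 to 144 bases before the start, and in Canx on the same strand, 145 to 127 bases before it. Of 32851 promoter windows of this length, 39 (0.119%) held these letters. Of the 8 members with a window, Calr and Canx held the ERSE, and the windows of Calu, Rcn2, Rcn3, Sdf4 (4 windows), Nucb1 and Nucb2 had no exact match. The search also finds the ERSE known in the BiP gene Hspa5, 65 to 47 bases before its start. Of 18 tested genes with an ERSE in a window, Calr and Canx included, 12 fell (66.7%), 1 rose and 5 did not pass, and their median log2 fold change was -1.13. Of all 10839 tested genes with a window 29.7% fell, with a median of -0.03. A match describes letters in this window and is not a measurement of binding.

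**Figure D2:**
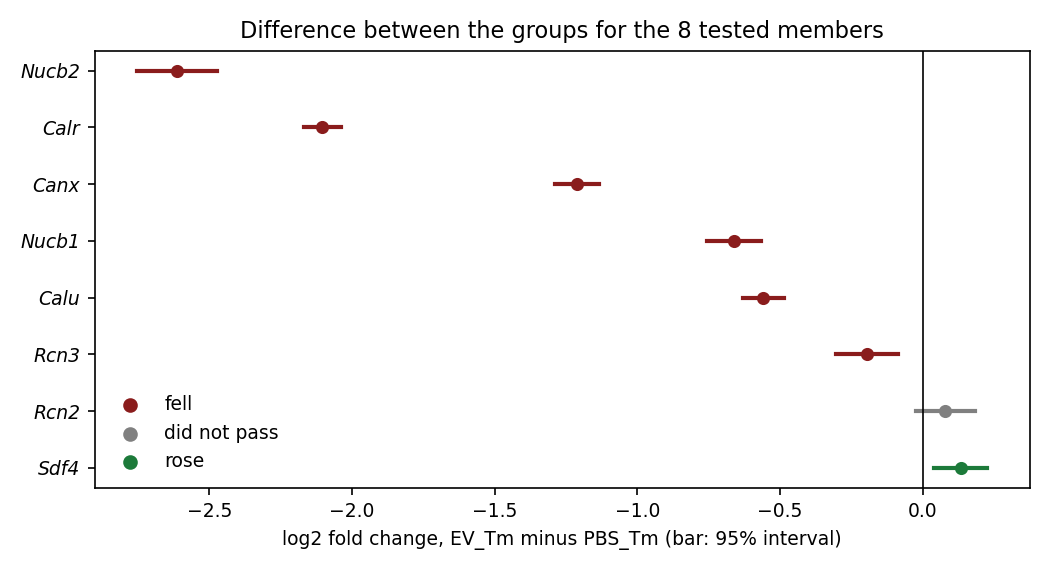
Log2 fold change of the 8 tested members, EV_Tm minus PBS_Tm, with the 95% interval of the edgeR fit as a bar. Colours give the call, with 6 members lower, Rcn2 not passing and Sdf4 higher in EV_Tm. The values run from -2.61 for Nucb2 to 0.13 for Sdf4.

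Among the CREC genes, differences were small beside those of the lectin chaperones. Calu (ENSMUSG00000029767, chromosome 6, 29348069 to 29377110, plus strand) encodes calumenin, found in the ER and along the secretory route. It was at 716, 712 and 687 CPM in EV_Tm, against 1015, 1058 and 1043 CPM in PBS_Tm. The groups were apart, with Calu 1.47-fold lower in EV_Tm (log2 fold change -0.56 ± 0.03, SE, edgeR adjusted p = 1.24e-12). Of its 50-base stretches 8.95% also occur in transcripts of other genes, among them Pi4ka and the antisense overlapping gene Opn1sw, which had at most 10 counts in a library.

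The reticulocalbins are ER residents held there by a retrieval signal at their end. Rcn3 (ENSMUSG00000019539, chromosome 7, 45082913 to 45092221, minus strand) was at 111, 120 and 121 CPM in EV_Tm, against 143, 137 and 123 CPM in PBS_Tm. The highest EV_Tm library and the lowest PBS_Tm library lay close together but did not overlap. Rcn3 was 1.15-fold lower in EV_Tm (log2 fold change -0.20 ± 0.05, SE, edgeR adjusted p = 0.00348). Of its 50-base stretches 12.7% are shared with the antisense gene Gm45669, which had at most 9 counts in a library.

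Rcn2 (ENSMUSG00000032320, chromosome 9, 56041845 to 56061882, plus strand), a reticulocalbin of the ER, was at 85.3, 84.8 and 84.1 CPM in EV_Tm, against 84.4, 79.7 and 76.5 CPM in PBS_Tm. The groups overlapped, and the log2 fold change of 0.08 ± 0.05 did not pass (SE, edgeR adjusted p = 0.209). Its 95% interval ran from -0.02 to 0.18, so that a fall as large as that of Calu lies outside it.

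Rcn1 (ENSMUSG00000005973, chromosome 2, 105386291 to 105399319, minus strand) had 0 counts in all 6 libraries, which allows a level of up to 0.0931 to 0.103 CPM (3 counts a library, counting error only). Rcn3, its closest relative here after Calu by coding sequence, had 3454 to 4560 counts a library. No gene in the table overlaps Rcn1, and none of its 50-base stretches occurs in a transcript of another gene. Nearby on chromosome 2, Eif3m had 2488 to 3067 counts a library and Elp4 404 to 546, while Wt1 had 1 count in all libraries together, Pax6 had 7, and Them7, which lies next to Rcn1, had 0. These neighbours were named after their counts were seen.

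Sdf4 (ENSMUSG00000029076, chromosome 4, 155992872 to 156013610, plus strand) encodes Cab45, a Golgi protein that takes part in sorting secreted cargo. It was at 114, 113 and 117 CPM in EV_Tm, against 105, 107 and 102 CPM in PBS_Tm. The groups did not overlap, as was the case in 54.5% of all tested genes, and the rise of 0.13 ± 0.04 on the log2 scale was small (SE, edgeR adjusted p = 0.0173). The call was lost with no filter on low counts (adjusted p = 0.0553), without EV_Tm replicate 2 (0.0530), without EV_Tm replicate 3 (0.0837) and without PBS_Tm replicate 3 (0.0586).

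Within libraries, the CREC genes parted from one another. Calu had 8.39, 8.40 and 8.17 times the counts of Rcn2 in EV_Tm, against 12.0, 13.3 and 13.6 times in PBS_Tm. Rcn3 had 1.30, 1.42 and 1.44 times the counts of Rcn2 in EV_Tm, against 1.70, 1.72 and 1.61 times in PBS_Tm. Sdf4 had 0.159, 0.159 and 0.170 of the counts of Calu in EV_Tm, against 0.103, 0.101 and 0.0976 in PBS_Tm. For each of these ratios the groups did not overlap, with an exact permutation p of 0.10, and 0.10 after adjustment over the 5 pairs. Ratios with Rcn1 could not be formed.

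**Figure D3:**
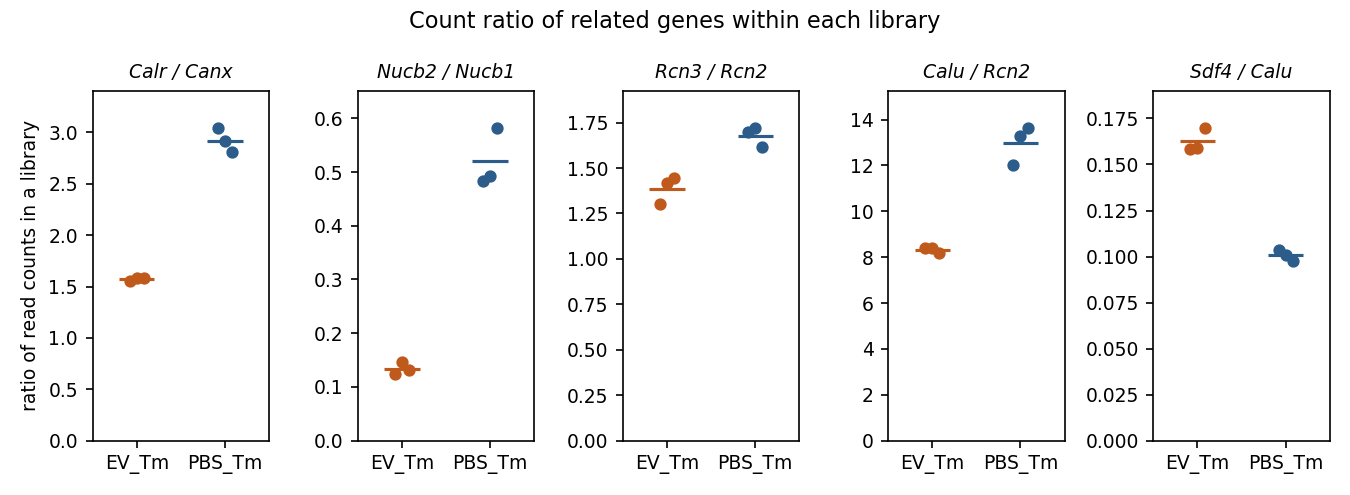
Ratio of the read counts of related genes within each library, with EV_Tm left and PBS_Tm right in every panel and each axis starting at 0. Points are libraries and lines are means (n = 3 each). Nucb2 over Nucb1 averages 0.134 in EV_Tm and 0.520 in PBS_Tm, and Sdf4 over Calu alone is higher in EV_Tm.

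Both nucleobindin genes fell, with very different fold changes. Nucb2 (ENSMUSG00000030659, chromosome 7, 116504369 to 116540584, plus strand) was at 15.4, 17.4 and 17.04 CPM in EV_Tm, against 96.2, 99.2 and 110 CPM in PBS_Tm. Every EV_Tm library lay far below every PBS_Tm library. Nucb2 was 6.12-fold lower in EV_Tm (log2 fold change -2.61 ± 0.07, SE, edgeR adjusted p = 3.88e-20), the largest difference among the 8 tested members. In the order of fold changes over all 16844 tested genes it stood at place 38 from the lowest, and Calr at place 74.

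Nucb1 (ENSMUSG00000030824, chromosome 7, 45490458 to 45510406, minus strand) encodes nucleobindin 1, a calcium binder of the Golgi lumen also known as CALNUC. It was at 123, 118 and 130 CPM in EV_Tm, against 199, 201 and 188 CPM in PBS_Tm. The groups were apart, at 1.58-fold lower in EV_Tm (log2 fold change -0.66 ± 0.05, SE, edgeR adjusted p = 1.26e-11). The gene Tulp2 overlaps it on the other strand and had at most 69 counts in a library. Nucb2 had 0.125, 0.147 and 0.131 of the counts of Nucb1 in EV_Tm, against 0.484, 0.494 and 0.582 in PBS_Tm. This log2 ratio differed by -1.95 ± 0.11 (SE), the largest difference of the 5 pairs (exact permutation p = 0.10, adjusted 0.10), between genes whose coding sequences are identical at 67.7% of aligned bases.

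The nucleobindin windows are shown because each holds a variant of the same element. Nucb1 held the ERSE-II, searched as ATTGGNCCACG on both strands, at 41 to 31 bases before the start on the opposite strand. This motif stood in 12 of 32851 windows (0.0365%). Of the 9 tested genes that carry it 7 fell (77.8%), Nucb1 included, against 29.7% of all 10839 tested genes with a window. Nucb2 held an ERSE with 1 of the 10 fixed letters changed, 84 to 66 bases before the start. The change was A17G, counted from 1 at the first letter of the motif, with the motif's base first. Such an ERSE with 1 changed letter stood in 461 windows (1.40%). Of the 242 tested genes that carry it 108 fell (44.6%), Nucb2 included, against the same 29.7%, while 36 rose and 98 did not pass. Their median log2 fold change was -0.17, small beside the -2.61 of Nucb2. Calu, Rcn2, Rcn3 and Sdf4 held neither the ERSE-II nor an ERSE with at most 1 changed letter. Capitals mark the fixed letters of the match in chr7:45510359-45510658 (minus strand) for Nucb1 and in chr7:116504119-116504418 (plus strand) for Nucb2.
Nucb1: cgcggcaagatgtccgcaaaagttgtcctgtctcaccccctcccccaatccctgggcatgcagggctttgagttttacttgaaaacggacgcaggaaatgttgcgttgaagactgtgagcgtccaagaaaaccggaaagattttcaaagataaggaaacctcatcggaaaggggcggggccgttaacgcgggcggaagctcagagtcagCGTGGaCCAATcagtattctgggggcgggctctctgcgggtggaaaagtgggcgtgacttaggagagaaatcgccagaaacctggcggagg
Nucb2: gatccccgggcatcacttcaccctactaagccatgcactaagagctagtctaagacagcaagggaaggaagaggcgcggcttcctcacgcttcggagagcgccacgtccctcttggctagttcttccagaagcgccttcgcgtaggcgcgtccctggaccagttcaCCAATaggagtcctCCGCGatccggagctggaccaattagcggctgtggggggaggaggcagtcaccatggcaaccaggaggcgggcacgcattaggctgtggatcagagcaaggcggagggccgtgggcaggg

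The letters TGACGTGG, on either strand, a further stress element known as UPRE, were in none of the members' windows and in 0.676% of all windows. The shorter ACGTG, searched on both strands and contained in the UPRE, was in windows of Calr, Calu, Rcn3, Sdf4 and Nucb2, and in 19.6% of all windows. It occurs in members that fell and in 2 of the 4 windows of Sdf4, which rose. The call of Sdf4 was lost in 4 of 13 alternatives of the fit. Any part of these letters in the differences was not tested.

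Per kilobase of gene length, the order of levels changed between the groups. Calr was highest in both, at 287 ± 6.30 CPM per kb in EV_Tm and 1234 ± 15.7 CPM per kb in PBS_Tm (SD, n = 3 each, here and in this paragraph). In EV_Tm it was followed by Calu at 151 ± 3.34, Canx at 112 ± 3.51, Rcn3 at 68.4 ± 3.3, Sdf4 at 18.7 ± 0.31, Rcn2 at 17.9 ± 0.13, Nucb1 at 15.1 ± 0.75 and Nucb2 at 7.13 ± 0.46 CPM per kb. In PBS_Tm the order after Calr was Canx at 260 ± 10.1, Calu at 223 ± 4.59, Rcn3 at 78.4 ± 5.9, Nucb2 at 43.6 ± 3.0, Nucb1 at 23.9 ± 0.82, Sdf4 at 17.1 ± 0.41 and Rcn2 at 16.9 ± 0.85 CPM per kb. Neighbours in each order lay apart over the libraries except Sdf4 and Rcn2 in PBS_Tm. Nucb2 was thus, per kilobase, the lowest of the 8 in EV_Tm and above Nucb1, Sdf4 and Rcn2 in PBS_Tm. Its place above Nucb1 and Sdf4 rests on the gene lengths, 2331 bases for Nucb2, 8212 for Nucb1 and 6115 for Sdf4. Their coding sequences differ much less, at 1260, 1377 and 1083 bases. Whether the deposited lengths are those of the transcripts present was not tested. In mean CPM of PBS_Tm, not divided by length, Nucb2 was at 102, Nucb1 at 196, Sdf4 at 104 and Rcn2 at 80.2. Calu was above Canx in EV_Tm and below it in PBS_Tm.

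Calr made up 42.4% ± 0.35 of the members' summed CPM per kb in EV_Tm and 65.1% ± 0.35 in PBS_Tm (SD, n = 3 each). Calu made up 22.3% ± 0.18 in EV_Tm and 11.7% ± 0.14 in PBS_Tm. Nucb2 made up 1.05% ± 0.075 in EV_Tm and 2.30% ± 0.17 in PBS_Tm.

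**Figure D4:**
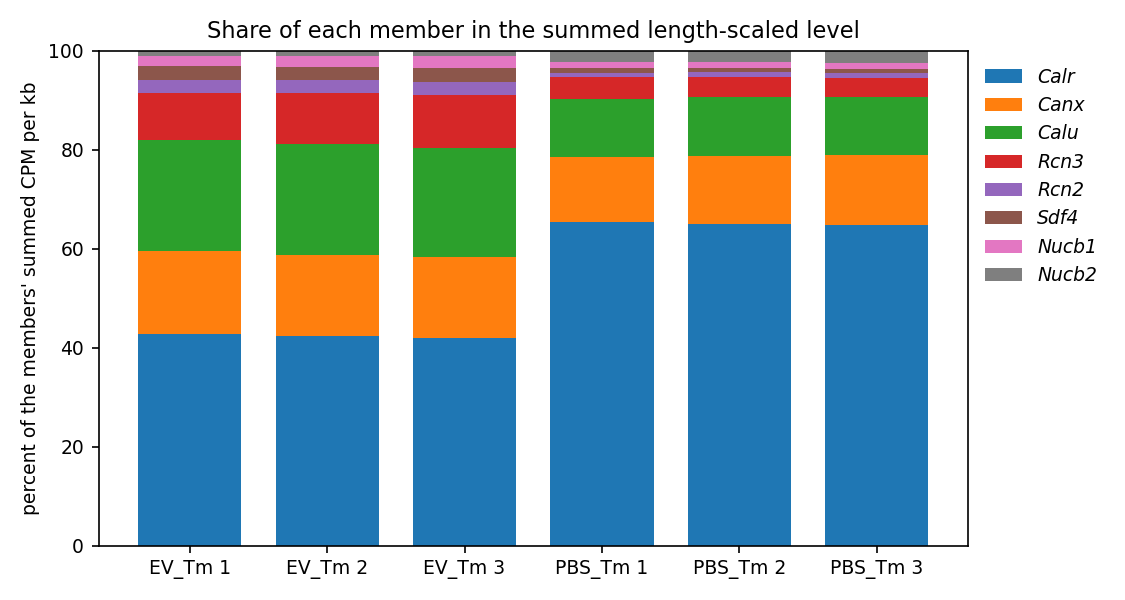
Share of each tested member in the members' summed CPM per kb, in percent, for each of the 6 libraries, EV_Tm on the left. The Calr share is about 42.4% in EV_Tm and 65.1% in PBS_Tm, and libraries of a group differ little from each other.

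Place of residence did not sort the members. The 5 tested ER residents (Calr, Canx, Calu, Rcn3 and Rcn2) had log2 fold changes from -2.10 to 0.08, and the 3 Golgi residents (Nucb2, Nucb1 and Sdf4) from -2.61 to 0.13. Summed over genes, the ER residents were at 2260 ± 45.6 CPM in EV_Tm and 6026 ± 84.3 CPM in PBS_Tm, and the Golgi residents at 255 ± 8.00 CPM in EV_Tm and 402 ± 4.01 CPM in PBS_Tm (SD, n = 3 each). The ER residents had 9.10, 9.14 and 8.36 times the summed counts of the Golgi residents in EV_Tm, against 14.9, 15.0 and 15.0 times in PBS_Tm. The log2 difference of -0.76 depended on what was summed and was -0.46 with counts per kilobase. Without Calr, an alternative chosen after the data were seen, the ratio was 5.76, 5.79 and 5.31 in EV_Tm, against 6.02, 6.17 and 6.24 in PBS_Tm, and the log2 difference was -0.13. No p is given for these sums, since the members were chosen with earlier results known.

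The other genes of the calnexin and calreticulin cycle were lower on balance. Of 15 tested genes 10 fell, none rose and Uggt2, Ganab, Mogs, Calr3 and Calr4 did not pass, and the median log2 fold change was -0.43. Over all tested genes 24.7% were called lower and 22.6% higher, for this list and those below. These shares are not matched for level. Edem1, which directs terminally misfolded glycoproteins to degradation, was 4.12-fold lower in EV_Tm, and Pdia3, the disulfide isomerase that works with both lectins, 3.59-fold lower. Lman1, a lectin that carries glycoproteins out of the ER, was 2.21-fold lower, and Uggt1, the folding sensor that returns glycoproteins to the lectins, 2.08-fold lower. Adjusted p-values of edgeR were 1.19e-22 for Edem1, 2.11e-23 for Pdia3, 4.15e-17 for Lman1 and 6.27e-15 for Uggt1. The glucosidase subunit gene Ganab, which trims the sugars the lectins read, was at 284 ± 7.98 CPM in EV_Tm and 298 ± 5.89 CPM in PBS_Tm (SD, n = 3 each, edgeR adjusted p = 0.164). The calreticulin relatives Calr3 and Calr4 were at 1.18 ± 0.19 and 0.910 ± 0.121 CPM in EV_Tm and at 1.48 ± 0.71 and 0.790 ± 0.218 CPM in PBS_Tm (SD, n = 3 each). Clgn, the calmegin of male germ cells, had too few counts to be tested, at most 5 in a library.

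Some other calcium binders of the ER lumen had larger fold changes than calreticulin. Of 10 tested genes on that list 6 fell, Stim2 rose and Casq1, Casq2 and Hrc did not pass (median log2 fold change -0.996). Hspa5, which encodes the chaperone BiP, had a log2 fold change of -3.40 ± 0.03, Pdia4, a disulfide isomerase, -3.12 ± 0.04, and Hsp90b1, the chaperone GRP94, -2.75 ± 0.03 (SE). Pdia6, also a disulfide isomerase, had -2.20 ± 0.04 (SE). Adjusted p-values of edgeR were 1.72e-29 for Hspa5, 3.54e-27 for Pdia4, 1.02e-26 for Hsp90b1 and 1.47e-23 for Pdia6. The transcription factor gene Xbp1, named in the title of the series, was at 52.2 ± 1.95 CPM in EV_Tm and 187 ± 5.45 CPM in PBS_Tm (SD, n = 3 each), 3.58-fold lower. The muscle calcium buffers Casq1, Casq2 and Hrc were low, with no more than 93 counts in a library.

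Of the 4 prolyl isomerase genes of the ER with EF-hands, Fkbp14 was 2.40-fold lower (edgeR adjusted p = 2.16e-13), and Fkbp7, Fkbp9 and Fkbp10 did not pass. The abundant Fkbp9 was at 274 ± 7.66 CPM in EV_Tm and 268 ± 8.36 CPM in PBS_Tm (SD, n = 3 each, edgeR adjusted p = 0.541). Of the 3 KDEL receptor genes, whose products return soluble ER proteins such as calreticulin from the Golgi, Kdelr3 was 2.58-fold and Kdelr2 1.78-fold lower (edgeR adjusted p = 3.12e-14 and 2.54e-13). Kdelr1 did not pass, at 82.4 ± 3.3 CPM in EV_Tm and 81.5 ± 2.5 CPM in PBS_Tm (SD, n = 3 each).

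Golgi genes went both ways. Of 4 genes for Golgi calcium and ion transport only Gpr89 fell (log2 fold change -0.21 ± 0.08, SE, edgeR adjusted p = 0.0374), and Atp2c1, Atp2c2 and Tmem165 did not pass. The call of Gpr89 was lost with library size alone and without EV_Tm replicate 1, EV_Tm replicate 2, PBS_Tm replicate 1 or PBS_Tm replicate 3. Atp2c1, the calcium pump of the Golgi, was at 60.4 ± 2.1 CPM in EV_Tm and 59.9 ± 1.8 CPM in PBS_Tm (SD, n = 3 each). Of 16 tested Golgi residents not chosen for calcium 11 fell and 5 rose (median -0.48). Golga5, a golgin, had a log2 fold change of -1.10 ± 0.06, Gorasp2, a stacking protein, -0.99 ± 0.05, Golim4 -0.79 ± 0.05 and Golga4 -0.78 ± 0.04 (SE). The 5 that rose were Mgat1, B4galt1, Glg1, Tgoln1 and Man2a1, named after their values were seen, with log2 fold changes from 0.15 to 0.49. Man1a of the same list had 0 counts in all libraries.

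**Figure D5:**
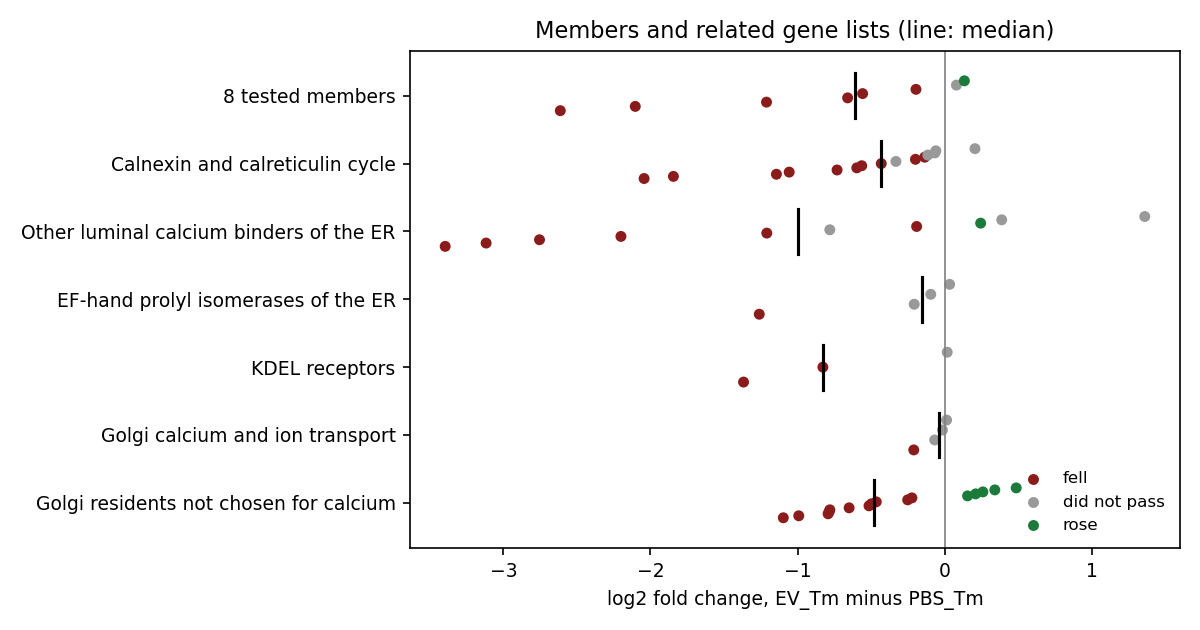
Log2 fold change of each tested gene, EV_Tm minus PBS_Tm, for the members and 6 related lists, with a black line at the median of each list. Colours give the call. Medians run from -0.996 for other luminal calcium binders of the ER to -0.04 for Golgi calcium and ion transport, and the members' median is -0.61.

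The tested genes whose log2 CPM followed Calr most closely over the 6 libraries were Mcfd2, Hyou1, Creld2, Hspa5 and Srp72, searched among the 4643 called genes whose mean log2 CPM was 5 or more. Each had a Pearson r of at least 0.9998. Their log2 fold changes were -1.29 for Mcfd2, -2.91 for Hyou1, -4.33 for Creld2, -3.40 for Hspa5 and -0.87 for Srp72. For Nucb2 the closest were Epb41, Mcph1, Hoxb9, Nfatc3 and Ccdc186, each with r of at least 0.9993 and log2 fold changes from -0.47 to -0.81. With 6 libraries in 2 groups r is high for any gene that fell by a gap large beside its spread within the groups, even where the fold change is small. With Calr 479 genes had r over 0.99 and with Nucb2 445, so these names describe a pattern over these libraries only.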

How the data were processed

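Total RNA of 6 samples was sequenced in bulk. Per the labels' protocols, reads were trimmed of adaptors and mapped with HISAT2 2.2.1, and the submitters' processing notes name featureCounts 2.0.6 as the counter. The authors deposited whole-number counts of reads per gene, not normalized. How strand and multiply mapped reads were handled is not given in the sources used here. Genes with an antisense partner are therefore uncertain. Other values in the deposited table are each gene's coordinates and its length in bases. The build named in the processing notes is mm39, but start and end of 98.33% of the 54409 gene IDs shared with GENCODE M21, and of all 9 members, equal those of GRCm38, which is the build printed.

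The comparison of EV_Tm with PBS_Tm used edgeR 4.0.16 (R 4.3.3) with TMM factors, filterByExpr and the quasi-likelihood test (two-sided), adjusted by Benjamini-Hochberg over 16844 genes. A log2 fold change is EV_Tm minus PBS_Tm, and its SE is its size divided by the square root of F. The filter kept 8 of the 9 members. Length-scaled levels divide the CPM by the deposited gene length. Libraries of a group differed by more than sampling noise (mean chi-square per gene 3.18 to 5.85, against 64.6 to 73.0 between groups). This does not measure the quality of a library, and all 6 were kept. Ratios of related genes were compared by an exact permutation test over 20 assignments of the libraries. The fit was tested on simulated data.

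The members, gene lists, tests and motifs were chosen with earlier results of these data known. The genes named are the members, up to 4 called genes per list by smallest adjusted p, relatives of calreticulin and calnexin, Hspa5, Xbp1 and the 5 genes most like Calr and Nucb2 by Pearson r, while Ganab, Stim2, Fkbp9, Kdelr1, Atp2c1 and other genes outside this rule were named after their values were seen. Alternatives were DESeq2 size factors, library size alone, no filter, at least 1 CPM in 3 libraries, tests by DESeq2 1.42.0 and by voom in limma 3.58.1, a block for the replicate number, each library left out in turn, and other sums for the ER and Golgi residents.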

Additional observations from a re-analysis of the deposited data

How the results depend on the processing

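Each of the 8 tested members kept its direction in all 13 alternatives of the fit. Calr ranged from -2.12 to -2.06 on the log2 scale, Nucb2 from -2.65 to -2.56, Canx from -1.25 to -1.17, Nucb1 from -0.70 to -0.62, Calu from -0.58 to -0.52, Rcn3 from -0.26 to -0.15 and Rcn2 from 0.04 to 0.12, all on the same side of the threshold. Sdf4 lost its call in 4 of 13, so that the number of members called higher was 0 with no filter on low counts and 0 to 1 without 1 library. The number of all genes called was 7976, against 7080 to 8013 in the alternatives. The replicate numbers did not pair the samples (correlation of deviations from the group means -0.04, 0.02 and -0.01 for numbers 1, 2 and 3). With the replicate block 7737 genes were called and Sdf4 kept its call (edgeR adjusted p = 0.0413). The log2 difference of the summed ER over Golgi residents, -0.76, was -1.02 without Calu, -0.46 per kilobase and, in alternatives chosen after seeing the data, -0.13 without Calr and -1.08 without Nucb2. Counts of called genes in the related lists moved by more than 1.5 times for Golgi calcium and ion transport (0 lower in 5 alternatives), other luminal calcium binders (2 higher in 3) and EF-hand prolyl isomerases (2 lower in 1), the cause was not tested, and other list counts moved by at most 1 gene. Rcn1, with no read in any library, gave no value to test.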
